A study of Rattus norvegicus with 30 samples.

Results

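The genes described here are the neurotrophin brain-derived neurotrophic factor (Bdnf) and the receptors Ntrk2 and Ngfr, followed across 5 groups of rats and 2 cohorts. They were chosen by Ensembl identifier, and an identifier was to be dropped if the deposited tables placed it on another chromosome than the one given for it. All 3 stayed, of 32552 identifiers in the tables: ENSRNOG00000047466 (Bdnf) on chromosome 3, ENSRNOG00000018839 (Ntrk2) on chromosome 17 and ENSRNOG00000005392 (Ngfr) on chromosome 10. All 3 were among the 15797 genes with enough counts to be tested.

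Messenger RNA was sequenced from the hippocampus of 30 adult, wild-type, male Sprague-Dawley rats, 1 library per rat. CT rats (n = 7) self-administered saline over the same 21 days of training as the other groups and were never shocked. Rats of the SR (n = 7) and SS (n = 6) groups pressed for methamphetamine (METH) for 21 days and were then exposed to foot-shocks over 8 days, under which SR (shock-resistant) rats kept pressing for the drug and SS (shock-sensitive) rats pressed less. YSR (n = 5) and YSS (n = 5) rats self-administered saline, also with 21 days of training. Over the 8 days of shocks they were yoked to an SR or an SS rat, so that they received its shocks without METH. All groups shared the apparatus and the saline vehicle, no group took METH without shocks, and SR and SS were separated by behaviour rather than assigned. The study reported that both METH groups lowered their METH intake under the shocks, SS rats more than SR rats. It also reported more shocks in SR and YSR rats than in SS and YSS rats, so these groups differ in shock number as well. Each title carries a cohort, XII or XIII, and a letter, L or R, whose meaning is not given in the sources used here. The rats of cohort XII number 1 in CT, 4 in SR, 2 in SS, 3 in YSR and 1 in YSS, and all 5 YSR rats carry the letter R. CT rat XIII-L11 stands apart with 139 CPM of its total count on chromosome Y, against 190 to 248 in the other 29 male rats, and values against CT that moved by over 1.5 times or crossed an unadjusted p of 0.05 without it are given both ways. The tissue field of the records reads dorsal striatum where their protocol and the study's methods read hippocampus. The records and the study's abstract place dissection 2 h after the last session, where the study's methods place it immediately after. Markers of either tissue could not be looked up, because the reference at hand paired no identifier with a symbol.

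Bdnf is a secreted neurotrophin that supports the survival of neurons and the plasticity of their synapses, and in the hippocampus it is made mainly by excitatory neurons. Its gene has several alternative first exons, each with a promoter of its own, spliced to a shared exon that encodes the protein, and some of these promoters respond to neuronal activity. Mature Bdnf signals through TrkB, the receptor tyrosine kinase encoded by Ntrk2, of which astrocytes make a truncated form without the kinase, while the precursor of Bdnf binds the low-affinity neurotrophin receptor encoded by Ngfr, which in the brain is best known from cholinergic neurons of the basal forebrain whose fibres reach the hippocampus.

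The counts sum all transcripts of a gene, so neither the start sites of Bdnf nor the kinase and truncated forms of Ntrk2 could be separated. In the deposited tables Bdnf ran from 100768637 to 100819210 on the plus strand of chromosome 3, with 9 exon blocks that sum to 6068 bases. Its last block, of 3652 bases, is the longest. Ntrk2 ran from 5933729 to 6244676 on the minus strand of chromosome 17 with 20 blocks that sum to 10685 bases, of which 1 block of 4862 bases lies inside the gene, 125217 bases after its first base. Ngfr, the shortest, ran from 83389847 to 83408061 on the minus strand of chromosome 10, with 6 blocks that sum to 3254 bases. The build of these positions is not given in the sources used here. The tables list no other gene, on either strand, that overlaps any of the 3.

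**Figure D1:**
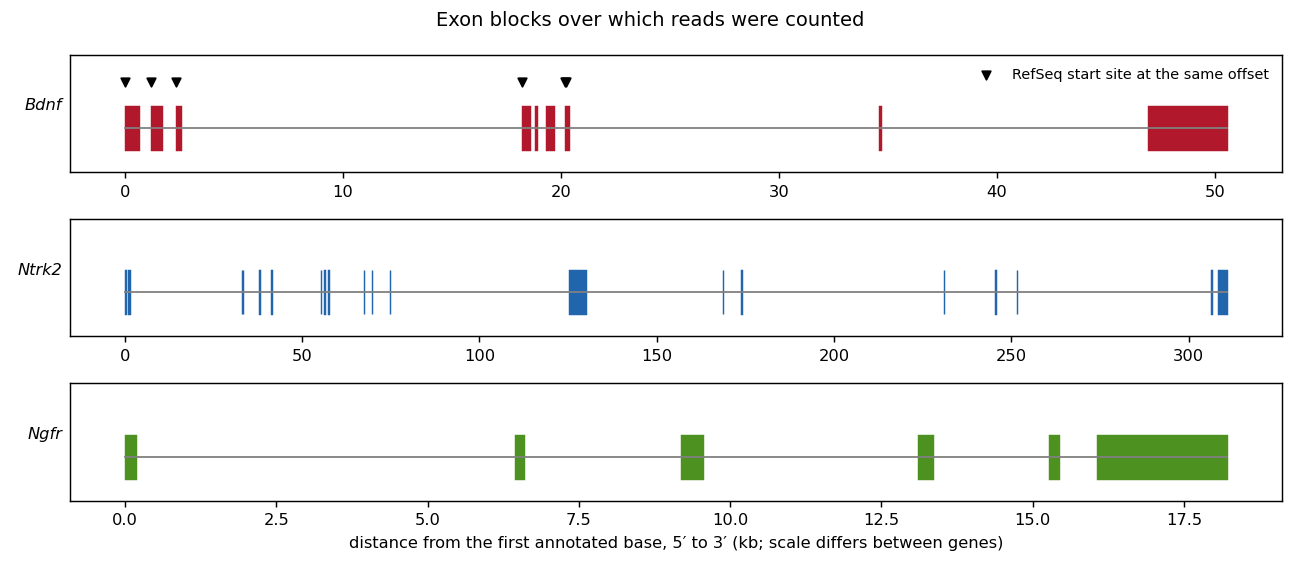
Exon blocks of the 3 genes as filled boxes along the distance in kb from the first annotated base, with a separate scale for each gene. The 9 blocks of Bdnf form a first group of 3, a second group of 4, a single short block and the long last block. The triangles mark 6 RefSeq start sites, each at the offset of an exon start.

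RefSeq's promoter table for the build GRCr8 held 6 windows for Bdnf and 0 for Ntrk2 and Ngfr. Each window covers 250 bases before a start site and 50 bases from it on. Counted from the first start site, the sites lie at 0, 1202, 2338, 18225, 20169 and 20225 bases. An exon of the deposited gene starts at each of these 6 offsets, counted from its own first base. The match at 0 is fixed by this way of counting, and the matches at the later offsets tie the identifier to Bdnf. The windows were searched on both strands for the cyclic AMP response element TGACGTCA, its variant TCACGTCA and the E-box CACGTG, to which factors that respond to neuronal activity can bind. The 2 windows that held any of them are shown because these are start sites that the gene count merges, with the matching letters in capitals. The second window is chr3:116620585-116620884 and the fourth is chr3:116637608-116637907, both in GRCr8 and on the plus strand.
Bdnf window 2: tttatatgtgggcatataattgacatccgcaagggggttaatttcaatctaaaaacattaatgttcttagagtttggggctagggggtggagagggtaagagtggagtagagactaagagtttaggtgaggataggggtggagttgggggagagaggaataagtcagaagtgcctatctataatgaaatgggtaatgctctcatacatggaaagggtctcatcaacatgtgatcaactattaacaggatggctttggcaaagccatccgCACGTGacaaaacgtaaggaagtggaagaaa
Bdnf window 4: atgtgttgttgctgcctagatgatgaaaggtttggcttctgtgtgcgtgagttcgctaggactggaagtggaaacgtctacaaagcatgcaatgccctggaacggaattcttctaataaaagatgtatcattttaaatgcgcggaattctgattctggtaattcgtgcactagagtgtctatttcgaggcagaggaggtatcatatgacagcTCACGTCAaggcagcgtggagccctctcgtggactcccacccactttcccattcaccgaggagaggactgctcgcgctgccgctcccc
In window 4 the letters TCACGTCA begin 38 bases before the start site. Among 33469 RefSeq windows of the same length, 0.4% held TCACGTCA on either strand, 1.83% held TGACGTCA and 6.42% held CACGTG, and these motifs do not overlap in the windows shown. A match is only a run of letters, and the counts carry no measure of binding or of the use of a start site.

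Per unit of exon length, Ntrk2 was the most abundant of the 3 and Ngfr the least in 30 of 30 rats. Mean levels were 157 TPM (counts divided by exon length and scaled to the same sum in each library) for Ntrk2, 12.9 TPM for Bdnf and 2.97 TPM for Ngfr. The ratio of Ntrk2 to Bdnf in TPM ranged from 9.20 to 16.5 with a median of 11.9. That of Bdnf to Ngfr ranged from 1.58 to 17.5 with a median of 5.36. In bulk tissue, fewer cells of a type and less RNA per cell cannot be told apart. The depth behind these levels was 14584340 to 19997820 counts per library, of which Ntrk2 received 12109 to 17007, Bdnf 575 to 852 and Ngfr 21 to 234.

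The genes also differed in their spread between rats. The coefficient of variation over all rats, on CPM (counts relative to the library size, scaled by the trimmed mean of M-values, TMM), was 7.02% for Ntrk2, 9.82% for Bdnf and 66.6% for Ngfr. Counting error alone would give 0.827%, 3.83% and 10.9%. The highest rat exceeded the lowest 1.30-fold in Ntrk2, 1.51-fold in Bdnf and 9.99-fold in Ngfr. The standard deviation of log2 CPM within groups was 0.095 for Ntrk2, 0.13 for Bdnf and 0.997 for Ngfr, against a median of 0.15 over all genes tested. Ngfr was more variable within groups than 99.1% of the genes tested, whereas 22.3% of genes were less variable than Ntrk2 and 42.7% less variable than Bdnf. These ranks were not matched for level. In mean CPM, Ntrk2 exceeded 99.3% of the genes tested, Bdnf 65.1% and Ngfr only 25.6%.

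**Figure D2:**
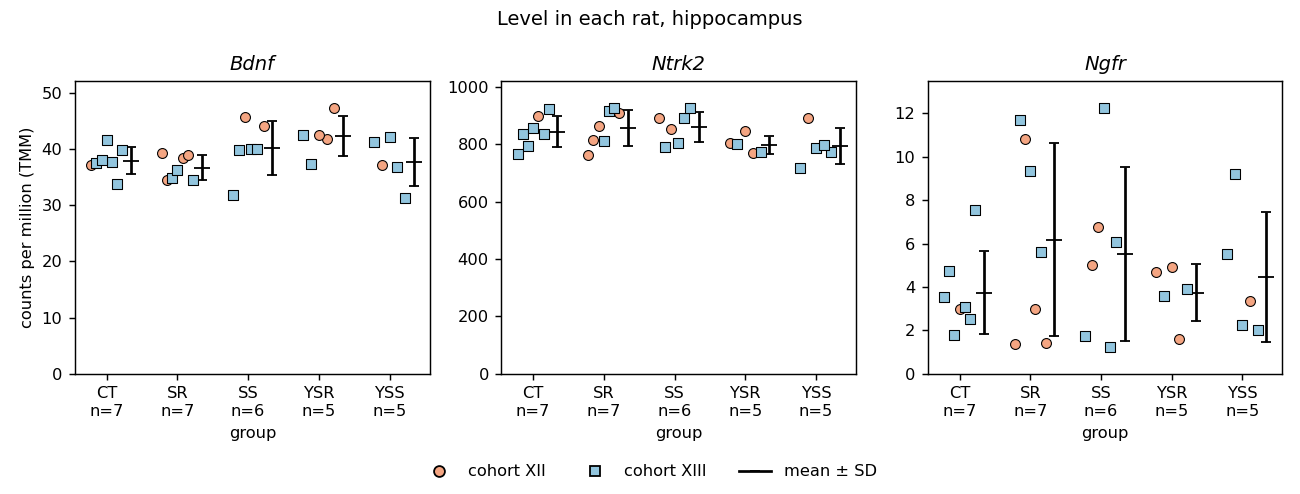
Each point is 1 rat, in CPM, by group, with circles for cohort XII and squares for cohort XIII, and bars give the mean and SD. Bdnf and Ntrk2 lie in narrow bands, with Bdnf between 31.3 and 47.4 CPM and Ntrk2 between 716 and 928 CPM, and Ngfr spreads from 1.23 to 12.3 CPM with both ends in SS rats.

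Bdnf, the ligand, had its highest mean in YSR rats and its lowest in SR rats. In SR rats it was lowest at 34.5, median 36.3 and highest at 39.3 CPM, with a mean of 36.7 ± 2.18 CPM (SD, n = 7). In YSR rats the values were 37.3, 41.8, 42.5, 42.6 and 47.4 CPM, with a mean of 42.3 ± 3.59 CPM (SD, n = 5). Only 1 of the 5 YSR rats fell within the range of the SR rats, and the other 4 lay above every SR rat. In CT rats Bdnf ran from 33.8 through a median of 37.7 to 41.6 CPM (mean 37.9 ± 2.41, SD, n = 7). In SS rats it ran from 31.9 through a median of 40.0 to 45.8 CPM (mean 40.3 ± 4.82, SD, n = 6). In YSS rats the values were 31.3, 36.8, 37.2, 41.3 and 42.1 CPM (mean 37.8 ± 4.30, SD, n = 5). The order of the means was thus YSR, SS, CT, YSS and SR, and each neighbour in that order differed by less than the SD of either group.

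The largest pairwise difference of Bdnf in the design was that between the 2 groups that shared the SR shock schedule. Bdnf was lower in SR than in YSR rats by a fold change of 0.867 (95% interval 0.781 to 0.963, log2 fold change -0.21, SE 0.074), with an unadjusted p of 0.0090 and an adjusted p of 0.403 in edgeR's quasi-likelihood test, so the difference did not pass the test over all genes. The exact two-sided permutation test on log2 CPM gave p = 0.0076, where the smallest p possible was 0.0013. Within cohort XII all 4 SR rats lay below all 3 YSR rats (exact permutation p = 0.029, the smallest possible), and within cohort XIII all 3 SR rats lay below both YSR rats (exact permutation p = 0.10, the smallest possible). Leaving out YSR rat XII-R06, the highest of all in Bdnf at 47.4 CPM, brought the unadjusted p of edgeR's fit to 0.050 and the log2 fold change to -0.16.

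In the shock-sensitive arm the mean difference had the opposite sign. SS exceeded YSS by a log2 fold change of 0.093 (SE 0.077), an interval of 0.958- to 1.19-fold and an unadjusted p of 0.231 (adjusted p = 0.995), and 2 of the 6 SS rats lay above every YSS rat. The difference between the arms, (SR - YSR) - (SS - YSS), was -0.30 on the log2 scale (95% interval -0.52 to -0.082, SE 0.106). Its unadjusted p was 0.0085 and its adjusted p over all genes 0.836 in edgeR's quasi-likelihood test, so that a difference between the arms was not established. In cohort XIII alone the value was -0.18 with an unadjusted p of 0.235, and there the mean log2 CPM of SS and YSS differed by 0.0047 (exact permutation p = 1, n = 4 and 4).

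Several other comparisons of Bdnf came close to the unadjusted threshold from either side. YSR rats were higher than CT rats by 0.16 on the log2 scale (SE 0.074, unadjusted p = 0.041, adjusted p = 0.640), with 4 of 5 YSR rats above every CT rat. They exceeded YSS rats by 0.17 (SE 0.080, unadjusted p = 0.047, adjusted p = 1). With 1 library left out, the unadjusted p of these 2 differences reached 0.167 (without YSR XII-R06) and 0.210 (without YSS XIII-L06), and without CT XIII-L11 that of YSR vs. CT was 0.055. With the cohort in edgeR's fit the 2 differences were 0.11 and 0.12 and no longer under the threshold, with unadjusted p of 0.153 and 0.129. From the rats of cohort XIII alone, the values were 0.065 and 0.073, with unadjusted p of 0.531 and 0.508. The log2 fold change between the METH groups, SR vs. SS, was -0.13 (SE 0.070, unadjusted p = 0.066, adjusted p = 0.693). Leaving out 1 library moved it from -0.094 (unadjusted p = 0.201, without SS XII-R03) to -0.20 (unadjusted p = 0.0048, without SS XIII-L03, whose 31.9 CPM was the lowest among METH rats). Its unadjusted p was 0.026 with the cohort in the fit, 0.293 in cohort XIII alone and 0.011 in cohort XII alone. Cohort XII held 4 SR and only 2 SS rats, and the exact permutation test there gave p = 0.067, the smallest possible. Neither METH group was separated from CT, with log2 fold changes of -0.048 (95% interval -0.19 to 0.090) in SR and 0.086 (-0.058 to 0.23) in SS.

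Levels of Bdnf also moved with other properties of the libraries. Its log2 CPM had a correlation of r = 0.44 over the 30 rats with the first principal component of all genes tested, which holds 14.7% of their variance and on which the YSR rats averaged 8.71 and the SR rats -5.30. With that component as a covariate the SR vs. YSR difference was -0.15 with an unadjusted p of 0.046. With the letter as a covariate it was -0.19 with an unadjusted p of 0.021. Whether the component or the letter had a part in the difference was otherwise not tested.

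Ntrk2, the signalling receptor, had higher means in the METH and CT groups than in the yoked groups. In SR rats it ran from 763 through a median of 863 to 926 CPM (mean 858 ± 62.7, SD, n = 7), and in SS rats from 791 through 872 to 928 CPM (mean 860 ± 53.8, SD, n = 6). CT rats ran from 768 through 836 to 923 CPM (mean 844 ± 54.5, SD, n = 7). The 3 groups overlapped almost entirely. The YSR rats had 768, 772, 800, 803 and 846 CPM (mean 798 ± 31.2, SD, n = 5). The YSS rats had 716, 771, 787, 799 and 890 CPM (mean 793 ± 63.0, SD, n = 5), of which the highest, XII-R04, is the only YSS rat of cohort XII. In the order SS, SR, CT, YSR and YSS each neighbour differed by less than the SD of both groups, except CT and YSR, whose difference of 46.3 CPM exceeded the SD of YSR but not that of CT.

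With both METH groups set against both yoked groups, Ntrk2 was 1.08-fold higher in METH rats (95% interval 1.02 to 1.14, log2 fold change 0.11, SE 0.040). The unadjusted p was 0.0086 and the adjusted p 0.509 in edgeR's quasi-likelihood test, which did not pass. Of the 13 METH rats, 6 lay above the highest yoked rat, and 1 of the 10 yoked rats lay above the METH median. By exact permutation of the rats (two-sided) p was 0.010. In cohort XIII the difference in mean log2 CPM was 0.16 (exact permutation p = 0.0099, n = 7 and 6) with 6 of 7 METH rats above every yoked rat, and in cohort XII it was 0.038 (exact permutation p = 0.505, n = 6 and 4). Whether the cohorts differed in this respect was not tested.

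The parts of that contrast were of similar size, with a log2 fold change of 0.10 (SE 0.055, unadjusted p = 0.067, adjusted p = 0.647) in SR vs. YSR and 0.12 (SE 0.057, unadjusted p = 0.047, adjusted p = 0.995) in SS vs. YSS. For Ntrk2 in SS vs. YSS the unadjusted p stayed under 0.05 in 13 of the 30 fits that left out 1 library and in 2 of 10 other settings, and it reached 0.174 without YSS XIII-L04. The difference between these 2 was -0.013, with an interval from -0.17 to 0.15. Ntrk2 had a log2 fold change of -0.086 in yoked vs. CT rats (SE 0.046, unadjusted p = 0.072, adjusted p = 0.685), and of -0.11 without CT XIII-L11 (unadjusted p = 0.030, adjusted p = 0.634). METH rats were not separated from CT rats, with log2 fold changes of 0.023 (95% interval -0.079 to 0.13) in SR and 0.027 (-0.079 to 0.13) in SS, or 0.0016 and 0.0054 without CT XIII-L11. SR and SS differed by -0.0037, with an interval of 0.926- to 1.07-fold.

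Ngfr, the low-affinity receptor, varied widely among rats of 1 group, and no group was separated from another. In SR rats it ran from 1.38 through a median of 5.61 to 11.7 CPM (mean 6.17 ± 4.44, SD, n = 7). In SS rats it ran from 1.23 through 5.54 to 12.3 CPM (mean 5.51 ± 4.01, SD, n = 6), and in CT rats from 1.78 through 3.06 to 7.55 CPM (mean 3.74 ± 1.91, SD, n = 7). Of the SR rats, 3 lay above every CT rat and 2 below every CT rat, so both ends of the range were wider than in controls. The YSR rats had 1.62, 3.57, 3.89, 4.68 and 4.90 CPM (mean 3.73 ± 1.30, SD, n = 5). The YSS rats had 1.99, 2.26, 3.35, 5.51 and 9.21 CPM (mean 4.47 ± 2.99, SD, n = 5). Each neighbour in the order SR, SS, YSS, CT and YSR differed by less than the SD of either group.

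The largest difference fitted for Ngfr was between SR and either CT or YSR rats, with a log2 fold change of 0.73 in both. Against CT the standard error was 0.462, the interval ran from 0.861- to 3.18-fold and the unadjusted p was 0.126 (adjusted p = 0.578, edgeR's quasi-likelihood test). Without CT rat XIII-L11, which had the highest Ngfr of the CT rats at 7.55 CPM, the log2 fold change was 0.99 (unadjusted p = 0.049, adjusted p = 0.464). Without it the log2 fold changes of the YSR, YSS and all yoked rats against CT went from 0.00040, 0.26 and 0.13 to 0.26, 0.52 and 0.39, none with an unadjusted p under 0.05. Between SR and CT the mean of log2 CPM, which gives high rats less weight than the fit does, differed by 0.41 (exact permutation p = 0.462). In cohort XIII alone SR exceeded CT by 1.20 on the log2 scale with an unadjusted p of 0.039 and an adjusted p of 0.673. In cohort XII, 3 of the 4 SR rats lay at 1.38, 1.39 and 2.97 CPM, and the fourth, XII-R05, at 10.8 CPM. METH against yoked rats gave 1.43-fold (0.855 to 2.40) with an unadjusted p of 0.166 (adjusted p = 0.819). The intervals of both comparisons reach past a 2-fold change.

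**Figure D3:**
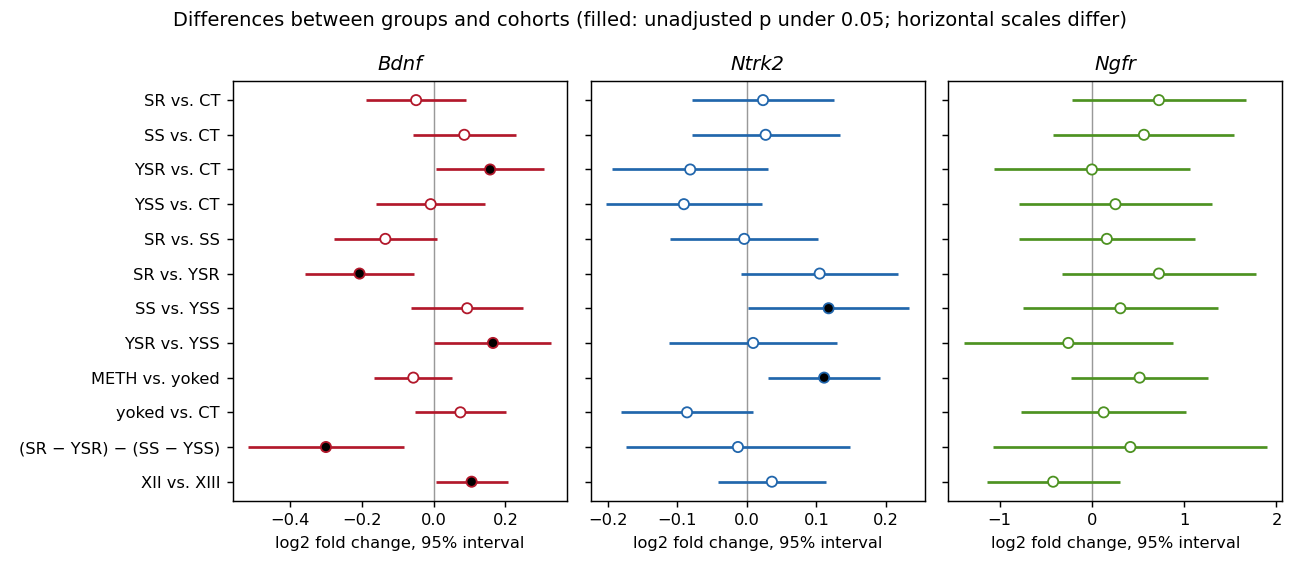
Points are log2 fold changes of edgeR's fit and lines their 95% intervals, for 11 comparisons of groups and for cohort XII vs. XIII, with a separate horizontal scale for each gene. Filled points have an unadjusted p under 0.05: 5 in Bdnf, 2 in Ntrk2 and 0 in Ngfr, and none passed after adjustment over all genes.

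The calls among the 3 genes are read against those among all genes tested. Against CT, at an unadjusted p under 0.05, SR called 0 of the 3 where 10.5% of all genes tested were called, SS called 0 (5.01% of genes), YSR called 1 (7.56%) and YSS called 0 (5.01%). Of the remaining pairs, the METH groups called 0 when compared with each other (7.46%), the resistant arm called 1 when METH rats were compared with yoked rats (8.17%), the sensitive arm likewise called 1 (4.27%), and the yoked groups called 1 when compared with each other (3.29%). The combined contrasts called 1 in METH vs. yoked (7.48%) and 0 in yoked vs. CT (7.7%), and the difference between the arms called 1 (5.43%). At an adjusted p under 0.05, 0 of the 3 were called in any comparison. Over all genes tested the share called at that level was 0.101%, 0.12%, 0.0823% and 0.146% for SS, YSR, YSS and both yoked groups against CT, 0.0253% for SR vs. YSR, and 0% for the remaining comparisons between groups. These comparisons share groups, so the 6 unadjusted calls are not independent of each other: YSR rats enter 5 of them and yoked rats all 6.

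Between cohorts, with the group in the fit, Bdnf was higher in XII than in XIII by 0.11 on the log2 scale (SE 0.049, unadjusted p = 0.039, adjusted p = 0.274, edgeR's quasi-likelihood test). The unadjusted p stayed under 0.05 in 17 of the 30 fits that left out 1 library, with a log2 difference down to 0.081, and it was 0.098 without SS XII-R03 and 0.050 with the letter as a covariate. Its mean was 40.7 ± 4.01 CPM (SD, n = 11) in XII and 37.8 ± 3.34 CPM (SD, n = 19) in XIII. Ntrk2 differed by 0.036 (95% interval -0.042 to 0.11) and Ngfr by -0.42 (-1.14 to 0.30), and neither passed even without adjustment. Between these cohorts 16.4% of all genes tested had an unadjusted p under 0.05 and 0.481% an adjusted p under 0.05, against which the 1 call among 3 members is to be read.

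Because Bdnf and Ntrk2 differed in opposite directions in SR vs. YSR, their counts were also compared as a ratio within each library, which no scaling between libraries can alter. This measure was chosen after the values had been seen. In SR rats there were 21.2, 21.9, 22.1, 23.3, 23.5, 25.5 and 26.3 Ntrk2 counts per Bdnf count (mean 23.4 ± 1.89, SD, n = 7). In YSR rats there were 16.2, 18.8, 18.8, 20.2 and 20.7 (mean 19.0 ± 1.75, SD, n = 5). Every SR rat lay above every YSR rat, though the lowest SR and the highest YSR rat were close. How many other pairs of genes part these groups was not counted.

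The ratio was thus 1.24-fold higher in SR than in YSR rats, which restates the 2 opposite differences from which the measure was built. An exact permutation test of the ratio was run. Its p is not given as support, because the measure was chosen after the values had been seen. In the other arm it was 1.02-fold higher, as SS rats averaged 21.7 ± 3.78 (SD, n = 6) and YSS rats 21.2 ± 3.24 (SD, n = 5). CT rats averaged 22.4 ± 2.62 (SD, n = 7), between SR and YSR rats. The log2 ratio had a correlation of r = -0.47 with the first principal component, whose part in the difference was not tested.

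**Figure D4:**
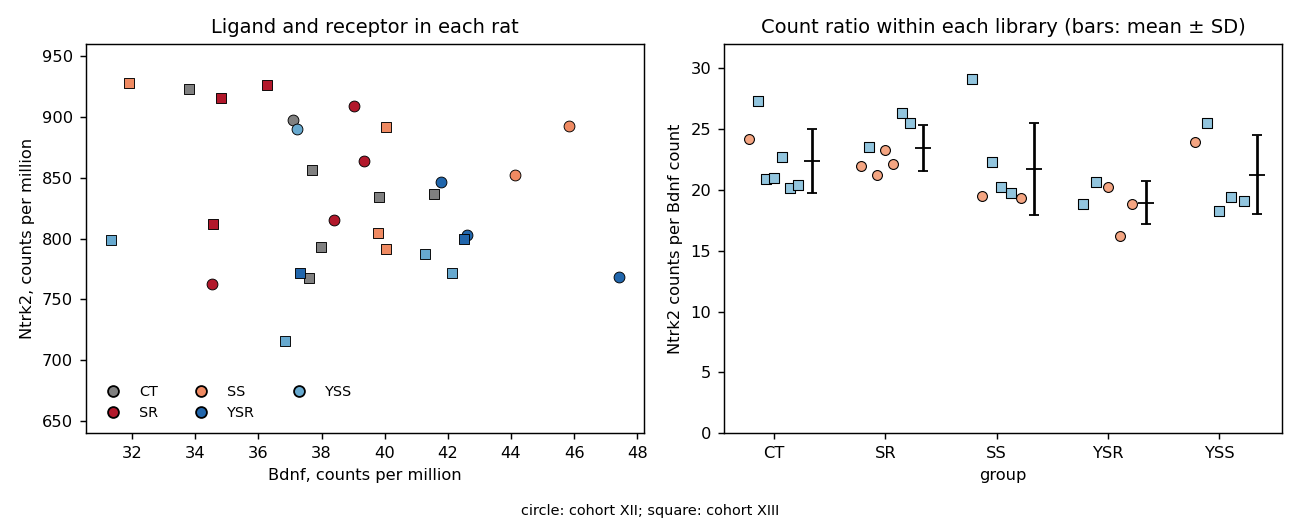
Left, Bdnf against Ntrk2 in CPM for each of the 30 rats, coloured by group, on axes that do not start at 0. Right, Ntrk2 counts per Bdnf count by group, with mean and SD: the SR rats lie between 21.2 and 26.3 and the YSR rats between 16.2 and 20.7, without overlap.

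No relation between the 3 genes was detected across the 30 rats. Over the 3 pairs computed, Bdnf and Ntrk2 had Pearson's r = -0.20 (permutation p = 0.297, adjusted p = 0.446) and Spearman's rho = -0.19 (permutation p = 0.309, adjusted p = 0.463), and r = -0.20 without the 2 rats farthest from the median of Bdnf. Within cohorts, r was -0.078 in XII (n = 11) and -0.38 in XIII (n = 19). Bdnf and Ngfr had r = -0.061 (permutation p = 0.747, adjusted p = 0.747) and rho = -0.098 (permutation p = 0.604, adjusted p = 0.604), with r = -0.053 without 2 rats, -0.099 in XII and 0.038 in XIII. Ntrk2 and Ngfr had r = -0.22 (permutation p = 0.244, adjusted p = 0.446) and rho = -0.21 (permutation p = 0.259, adjusted p = 0.463), with r = -0.071 without 2 rats, -0.083 in XII and -0.26 in XIII.

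The genes whose log2 CPM followed each member most closely over the 30 libraries are given as a description, since the values of both genes come from the same library and share its depth and tissue piece. The rule asked for genes with a symbol, and none could be paired with one, so the single identifiers below fall outside it and were named after their values were seen. For Ngfr the closest was ENSRNOG00000013369 on chromosome 4 with r = 0.889, and 0.903 after the group means were removed, though its own mean was only 0.774 CPM. For Ntrk2 it was ENSRNOG00000003262 on chromosome 10 with r = 0.807 (0.827 after the group means were removed). For Bdnf no gene exceeded r = 0.684, reached by ENSRNOG00000036661 on chromosome 10. After the group means were removed this gene had r = 0.625 with Bdnf, and the highest of any gene was 0.716. Above r = 0.7 there were 9 genes for Ngfr, 7 for Ntrk2 and 0 for Bdnf among 15796 others. After the group means were removed there were 10, 11 and 2.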

How the data were processed

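Per the labels, the authors demultiplexed reads with bcl2fastq 2.17, trimmed them with Trimmomatic 0.36, aligned them with STAR 2.5.2b and counted them per Ensembl gene with featureCounts of Subread 1.5.2. They deposited raw counts, 1 table per rat; build, annotation release and strand setting are not given in the sources used here. Groups and cohorts were read from the titles. Separate libraries of a group differed by more than sampling noise (chi-square per degree of freedom of at least 5.08).

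All 30 libraries entered 1 fit (edgeR 4.0.16, R 4.3.3, quasi-likelihood test, TMM, edgeR's default filter, Benjamini-Hochberg over the 15797 genes kept, group as the only factor; cohort contrast with group and cohort). The code was tested on simulated data. Log2 CPM used a prior count of 2. Exact permutation tests and correlations (100000 permutations) used SciPy 1.17.1 and NumPy 2.4.6 in Python 3.11.15. Alternatives were DESeq2 1.42.0, median-ratio size factors, 2 other filters (at least 1 count in all; at least 10 in every library), cohort as covariate, cohort XIII alone, only the groups compared, Tukey's test and each library left out. The first principal component, the letter, cohort XII alone and the count ratio were added after the data were seen.

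Members, lists and tests were chosen with earlier results of these data known. The naming rule covered 7 lists of gene symbols (neurotrophin pathway and cell type markers) and the 5 genes with a symbol most like each member. Since 0 of the 32552 identifiers could be matched to symbols, the lists and the marker check of tissue were not analysed here. Intervals cover the spread between rats, and depth per library is in the report.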

Additional observations from a re-analysis of the deposited data

Results flagged for a closer look

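The ratio of Ntrk2 to Bdnf counts in SS rat XIII-L03, 29.1, stood apart from the rest of its group, whose next value was 22.3 and lowest 19.3. The same rat had the lowest Bdnf of the METH rats (31.9 CPM) and the highest Ntrk2 of all rats (928 CPM). Without it, Bdnf in SS vs. CT had a log2 fold change of 0.14 with an unadjusted p of 0.033 and an adjusted p of 0.937 (edgeR's quasi-likelihood test). It was the 1 rat found in 20 sets of values examined, and chance gives about 1 in 20.

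The contrast (SR - YSR) - (SS - YSS) of Bdnf was -0.30 on the log2 scale with an unadjusted p of 0.0085, and it failed the adjustment over all genes (adjusted p = 0.836, edgeR's quasi-likelihood test). Over the 30 fits that left out 1 library each, it ranged from -0.36 to -0.23 with adjusted p between 0.621 and 1.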

How the results depend on the processing

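No value of the 3 genes reached an adjusted p under 0.05 in any of the 1422 values recomputed, the smallest being 0.215. Bdnf in SR vs. YSR kept its sign in all settings run on it, from -0.24 to -0.15. So did Bdnf in the contrast of the arms, from -0.36 to -0.18, and Ntrk2 in METH vs. yoked, from 0.096 to 0.16. For the last, the unadjusted p was under 0.05 in each setting run, which did not include Tukey's test or cohort XII alone. In cohort XII its difference in mean log2 CPM was 0.038 (exact permutation p = 0.505, n = 6 and 4). Tukey's test on log2 CPM, the test of the study's methods, called none of the 24 values it was run on. The number of unadjusted calls among 33 pairs of gene and comparison, 6, was 3 with the first principal component or the letter as a covariate, and 2 to 8 with 1 library left out (2 without YSR XII-R06, 3 without CT XIII-L12, YSR XIII-R10 or YSR XII-R02). No paired analysis was made, because the titles give groups no shared replicate numbers and no source used here says how the yoked and METH rats were matched up.

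Some differences changed sign between settings. Ngfr in YSR vs. CT, 0.00040, was -0.0045 in DESeq2, -0.0034 with median-ratio size factors, -0.00094 with all genes counted, -0.0052 with at least 10 counts in every library, -0.051 in cohort XIII alone, -0.0044 with only the groups compared and -0.15 with the letter. Ngfr in SR vs. SS was 0.16 in the fit of all rats, 0.73 in cohort XIII alone (unadjusted p = 0.230, edgeR's quasi-likelihood test) and -0.49 in cohort XII alone. Ntrk2 was -0.0046 in YSR vs. YSS with the cohort as covariate, and in cohort XIII alone 0.054 in SR vs. SS and 0.025 in the contrast of the arms. Bdnf in SS vs. CT, 0.086 in the fit of all rats, was -0.0080 in cohort XIII alone. In YSS vs. CT it was 0.0026 with the letter. The cause was not tested.

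With each library left out in turn, Bdnf in YSS vs. CT ranged from -0.050 to 0.052. Ngfr ranged from -0.066 to 0.58 in SR vs. SS, -0.11 to 0.75 in SS vs. YSS, -0.13 to 0.26 in YSR vs. CT, -0.45 to 0.18 in YSR vs. YSS, -0.19 to 0.52 in YSS vs. CT, -0.022 to 0.83 in the contrast of the arms and -0.096 to 0.39 in yoked vs. CT. Ntrk2 ranged from -0.00037 to 0.050 in SR vs. CT, -0.029 to 0.023 in SR vs. SS, -0.030 to 0.049 in YSR vs. YSS and -0.051 to 0.027 in the contrast of the arms. The 3 correlations kept their sign and side of the threshold on both other scales. Ngfr rests on 21 to 234 counts. Its coefficient of variation between rats was 66.6%, where counting error alone would give 10.9% at its mean count.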
